A study of Homo sapiens with 6 samples.

Results

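The response shared by both IMP1 constructs was measured by setting the 4 arrays of cells transfected with either construct against the 2 arrays of cells transfected with empty vector, which together are all 6 arrays of the series. Total RNA expression came from a human kidney cell line that the labels do not name further. The cells received empty vector (mock), a vector for human IMP1 labelled hIMP1 wt, or a vector for human IMP1 labelled hIMP1 Dmut, and every group, the mock included, had been transfected. The labels do not say what Dmut changes, how long after transfection the cells were taken, or what share of cells took up the vector. Each group had 1 array of replicate number 1 and 1 of number 2, and arrays with the same number were compared within a block. Nothing in the labels says whether the numbers stand for separate cultures. The p-values below thus reflect the scatter among these arrays alone, and that scatter may be technical.

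IMP1 is encoded by IGF2BP1. It is found mainly in fetal tissue and tumours, where it binds mRNAs through its KH domains and affects where they are kept in the cytoplasm, how long they last and how they are translated. Cells that make a protein in excess, or that hold unfolded protein, can switch on stress programmes. In the cytosol HSF1 drives chaperones such as HSPA6 and DNAJB1, and in the endoplasmic reticulum (ER) the unfolded protein response, read by PERK, IRE1 and ATF6, raises ER chaperones, the secretory machinery and the disposal of misfolded protein.

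HSPA6, the strictly inducible cytosolic Hsp70 chaperone, was the gene that rose with either construct. It is covered by 2 probe sets, and these were the 2 probe sets of 27307 tested that passed (0.00732% called higher, 0% called lower; limma with the replicate block, Benjamini-Hochberg adjusted p under 0.05). The brighter probe set read 28.6 in mock number 1 and 3.02 in mock number 2. It read 646 and 454 with hIMP1 wt, and 1033 and 824 with hIMP1 Dmut, numbers 1 and 2 in that order. All 4 construct arrays lay far above both mock arrays, and within each number the Dmut array was the higher of the 2 construct arrays. The log2 change was 5.07 ± 0.30 (SE, 95% interval 4.41 to 5.73), or 33.6-fold, with a limma adjusted p of 6.87e-05. The dimmer probe set read 13.6 and 2.57 in the mocks, 355 and 229 with hIMP1 wt, and 582 and 535 with hIMP1 Dmut. Its log2 change was 4.65 ± 0.31, or 25.2-fold, with a limma adjusted p of 0.000122. Both probe sets therefore gave the same order of groups within each replicate number.

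The size of the HSPA6 rise is bounded poorly on the mock side, because the mock intensities of both probe sets lie below the median of their own array (32.6 for number 1 and 28.6 for number 2), and those of number 2 below its lower quartile (8.26). On the log2(intensity + offset) scale used here, where the offset is 9.05, the brighter probe set changed by 5.07, and by 5.75 or 4.05 with the offset at the 10th percentile or at the median of all values. The mocks of both probe sets averaged below the brightness filter (mean log2 value of at least 5.19), so both passed it through the construct arrays. Both were also called in the fit without that filter. In the fit without an intensity trend, which does not let the spread vary with brightness, both probe sets kept their changes but had a limma adjusted p of 0.181. HSPA7, a nearly identical pseudogene copy of HSPA6, could share its signal, so the 2 cannot be separated with certainty here. In bulk RNA a rise in every cell and a larger rise in fewer cells cannot be told apart.

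**Figure D1:**
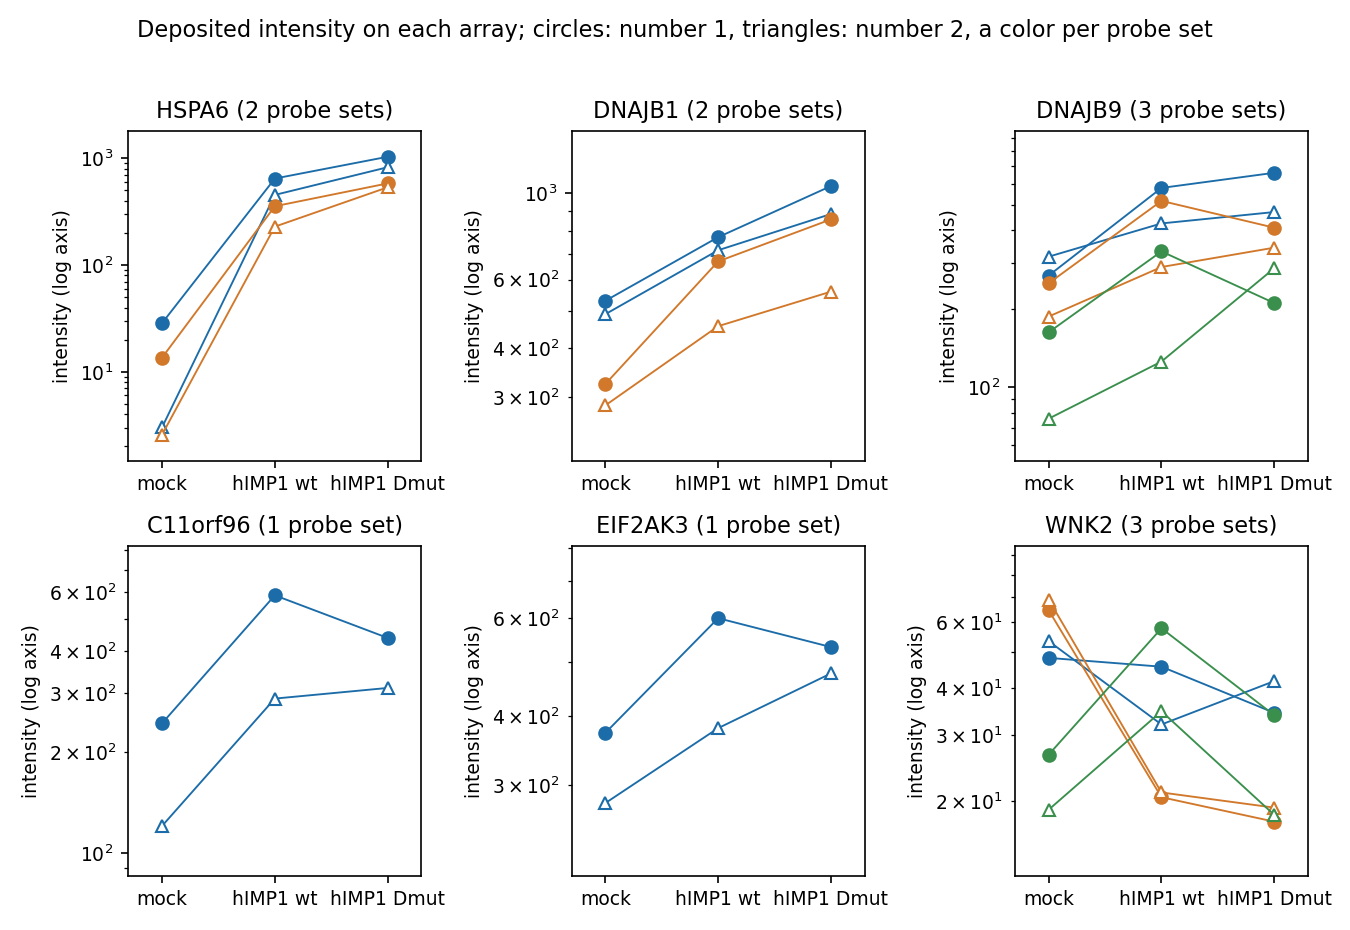
Deposited intensity (log axis, 1 value per array) of 6 genes on each of the 6 arrays, ordered as mock, hIMP1 wt and hIMP1 Dmut. Each probe set of a gene has 1 colour, with circles for arrays of number 1 and triangles for number 2. HSPA6 moves from 28.6 or less on the mock arrays to 229 or more on the construct arrays in both probe sets, DNAJB1 and DNAJB9 sit higher on every construct array than on the mock of the same number, and 2 of 3 WNK2 probe sets sit lower on all 4 construct arrays than on both mocks.

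HSF1 binds inverted repeats of GAA, so the promoters of the 2 leading cytosolic chaperone genes are shown with those repeats in capitals (250 bases before to 50 after the start, RefSeq, GRCh38.p14). The searched unit was GAANNTTC, which reads the same on both strands, and a longer form of 3 alternating units spaced by 2 bases. The HSPA6 window, chr1:161524290-161524589 on the plus strand, holds 2 matches to the shorter unit, and the second is part of the 1 match to the longer form. The DNAJB1 window, chr19:14518348-14518647 on the minus strand, holds 2 matches to the shorter unit and 0 to the longer.
HSPA6: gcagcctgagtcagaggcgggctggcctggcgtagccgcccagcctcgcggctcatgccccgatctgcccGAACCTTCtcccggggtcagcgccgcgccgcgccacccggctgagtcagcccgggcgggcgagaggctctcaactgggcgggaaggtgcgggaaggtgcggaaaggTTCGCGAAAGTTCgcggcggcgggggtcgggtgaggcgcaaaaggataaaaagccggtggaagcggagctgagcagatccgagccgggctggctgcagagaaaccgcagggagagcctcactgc
DNAJB1: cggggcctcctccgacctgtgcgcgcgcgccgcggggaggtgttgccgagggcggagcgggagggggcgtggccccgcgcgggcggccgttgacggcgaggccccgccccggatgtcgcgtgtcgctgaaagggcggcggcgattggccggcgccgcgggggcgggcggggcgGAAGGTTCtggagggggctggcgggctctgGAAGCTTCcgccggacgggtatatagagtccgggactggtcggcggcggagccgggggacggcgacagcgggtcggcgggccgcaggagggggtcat
DNAJB1 has 3 RefSeq windows in all, of which 1 other also holds 1 match. Over all 35116 windows the shorter unit was found in 6.77% and the longer in 0.49%. Among the heat shock chaperone genes, 24 of 27 had a window, and 13 of their 37 windows held the shorter unit (35.1%) and 8 the longer (21.6%). Of the chaperone genes described further below, SERPINH1 held 1 match to each form, while BAG3, HSPA13 and HSPH1 held 0 to either. A match describes letters only and was not tested for binding.

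DNAJB1, the Hsp40 partner that feeds substrates to Hsp70, came next among the heat shock chaperones but did not pass. Its dimmer probe set read 324 and 286 in the mocks, 668 and 456 with hIMP1 wt, and 857 and 559 with hIMP1 Dmut. All 4 construct arrays exceeded both mocks, with a log2 difference of 1.00 ± 0.15 (95% interval 0.67 to 1.33; limma adjusted p = 0.213). The brighter probe set read 530 and 489 in the mocks and 714 to 1043 with the constructs, a log2 difference of 0.72 ± 0.14 (limma adjusted p = 0.902). The 2 probe sets thus lay on the same side with different sizes. In a fit with a coefficient for each construct, the dimmer probe set passed with a limma adjusted p of 0.0486.

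The remaining heat shock chaperones lay much closer to the mocks. Of 27 measured genes of that list, 1 passed (HSPA6) and 5 had an unadjusted p under 0.05, all on the higher side. Over all 12269 genes 237 were higher and 225 lower at that threshold. BAG3, a co-chaperone that links Hsp70 to autophagy, read 722 and 500 in the mocks, 904 and 619 with hIMP1 wt, and 1064 and 867 with hIMP1 Dmut, a log2 difference of 0.49 ± 0.14. HSPA13, an Hsp70 relative of the ER, had a log2 difference of 0.40 ± 0.12, and HSPH1, the Hsp110 exchange factor, one of 0.31 ± 0.12. SERPINH1, the collagen chaperone, had a log2 difference of 0.30 ± 0.16, and its Dmut array of number 2 lay below the mock of that number. On all 4 construct arrays, 5 of the 27 genes lay above the mock of the same number and 1 lay below. Over all 12269 genes measured, 9.59% lay above on all 4 and 11.5% lay below on all 4. The 2 construct arrays of a number share 1 mock array, so these 4 comparisons are not independent. The list's median log2 difference was 0.08, beside -0.01 for all genes, and on the single arrays it was 0.09 and 0.13 with hIMP1 wt and 0.22 and -0.09 with hIMP1 Dmut. The median of the list was therefore not on 1 side in all arrays, and HSPA6 and DNAJB1 stood apart from most of their list.

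Of 35 measured genes of the unfolded protein response, 29 lay above 0 in the pooled log2 difference and 6 below, against 5746 and 6523 of all genes. In limma 0 of 35 passed, with 11 higher and 1 lower at an unadjusted p under 0.05, against 237 and 225 of all 12269 genes. On all 4 construct arrays 15 of the 35 lay above the mock of their number (42.9%, against 9.59% of all genes) and 2 lay below. The median log2 difference was 0.15, and on the single arrays it was 0.26 and 0.11 with hIMP1 wt and 0.19 and 0.06 with hIMP1 Dmut. These medians were above 0 on each of the 4 arrays, and larger for number 1 than for number 2.

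DNAJB9, an ER Hsp40 (ERdj4) that helps BiP and degradation of misfolded protein, led this list. Its brightest probe set read 268 and 316 in the mocks, 579 and 424 with hIMP1 wt, and 661 and 468 with hIMP1 Dmut. All construct arrays exceeded both mocks, with a log2 difference of 0.83 ± 0.16 (limma adjusted p = 0.894). The second probe set read 250 and 187 in the mocks, 516 and 289 with hIMP1 wt, and 408 and 342 with hIMP1 Dmut, a log2 difference of 0.79 ± 0.14. The third had 0.95 ± 0.29, so that the 3 probe sets gave similar differences.

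EIF2AK3, which encodes the ER stress sensor kinase PERK, read 373 and 279 in the mocks, 599 and 380 with hIMP1 wt, and 532 and 477 with hIMP1 Dmut. Its construct arrays all exceeded both mocks, with a log2 difference of 0.59 ± 0.13 (95% interval 0.31 to 0.88; limma adjusted p = 0.935). XBP1, the transcription factor made active when IRE1 splices its mRNA, read 846 and 716 in the mocks, 1121 and 840 with hIMP1 wt, and 1128 and 1188 with hIMP1 Dmut. Its log2 difference was 0.44 ± 0.14, and in number 2 the wt array lay well below the Dmut array. HSPA5, the main ER Hsp70 (BiP), read 3533 and 2575 in the mocks, 4865 and 3395 with hIMP1 wt, and 4515 and 2771 with hIMP1 Dmut, a log2 difference of 0.33 ± 0.11. Each HSPA5 construct array exceeded the mock of its own number, but the number 2 arrays lay below the number 1 mock. HYOU1, the large ER Hsp70 relative, had 0.37 ± 0.14, but its Dmut array of number 2 lay below the mock of that number (-0.04). CREB3L2, a membrane-bound transcription factor, had 0.30 ± 0.12, with its other probe sets at 0.14 ± 0.27 and -0.14 ± 0.49.

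The promoters of 3 of these genes carry the elements through which ATF6 and XBP1 are known to act, shown in capitals. HSPA5 (chr9:125241294-125241593, minus strand) and XBP1 (chr22:28800520-28800819, minus strand) hold the ER stress element, CCAAT and CCACG with 9 bases between. HYOU1 (chr11:119057156-119057455, minus strand) holds the unfolded protein response element TGACGTGG.
HSPA5: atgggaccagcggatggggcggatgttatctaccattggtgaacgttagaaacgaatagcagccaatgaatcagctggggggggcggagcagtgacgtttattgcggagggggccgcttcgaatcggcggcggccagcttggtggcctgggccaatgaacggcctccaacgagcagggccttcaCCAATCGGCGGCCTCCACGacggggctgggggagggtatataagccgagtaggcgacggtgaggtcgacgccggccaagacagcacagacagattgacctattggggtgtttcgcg
XBP1: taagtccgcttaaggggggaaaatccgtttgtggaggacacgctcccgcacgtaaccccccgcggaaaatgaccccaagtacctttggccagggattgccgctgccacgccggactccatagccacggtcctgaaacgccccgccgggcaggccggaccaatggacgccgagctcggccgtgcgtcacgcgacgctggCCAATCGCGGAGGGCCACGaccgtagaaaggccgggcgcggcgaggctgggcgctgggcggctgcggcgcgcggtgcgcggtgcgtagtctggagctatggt
HYOU1: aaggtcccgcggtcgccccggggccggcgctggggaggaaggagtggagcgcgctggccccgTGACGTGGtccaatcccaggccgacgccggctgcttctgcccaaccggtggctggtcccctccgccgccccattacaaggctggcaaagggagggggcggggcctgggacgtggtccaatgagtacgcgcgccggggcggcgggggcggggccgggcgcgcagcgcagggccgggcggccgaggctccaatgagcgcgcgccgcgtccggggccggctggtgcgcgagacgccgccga
Both strands were searched. The ER stress element was found in 0.0769% of all 35116 windows and in 10 of the 40 windows of the list's genes (25%), which belong to 8 of 32 genes with a window. The unfolded protein response element was found in 0.729% of all windows and in 2 genes of the list. The DNAJB9 window held neither element nor the heat shock unit, which says only that these letters are not in those 300 bases.

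**Figure D2:**
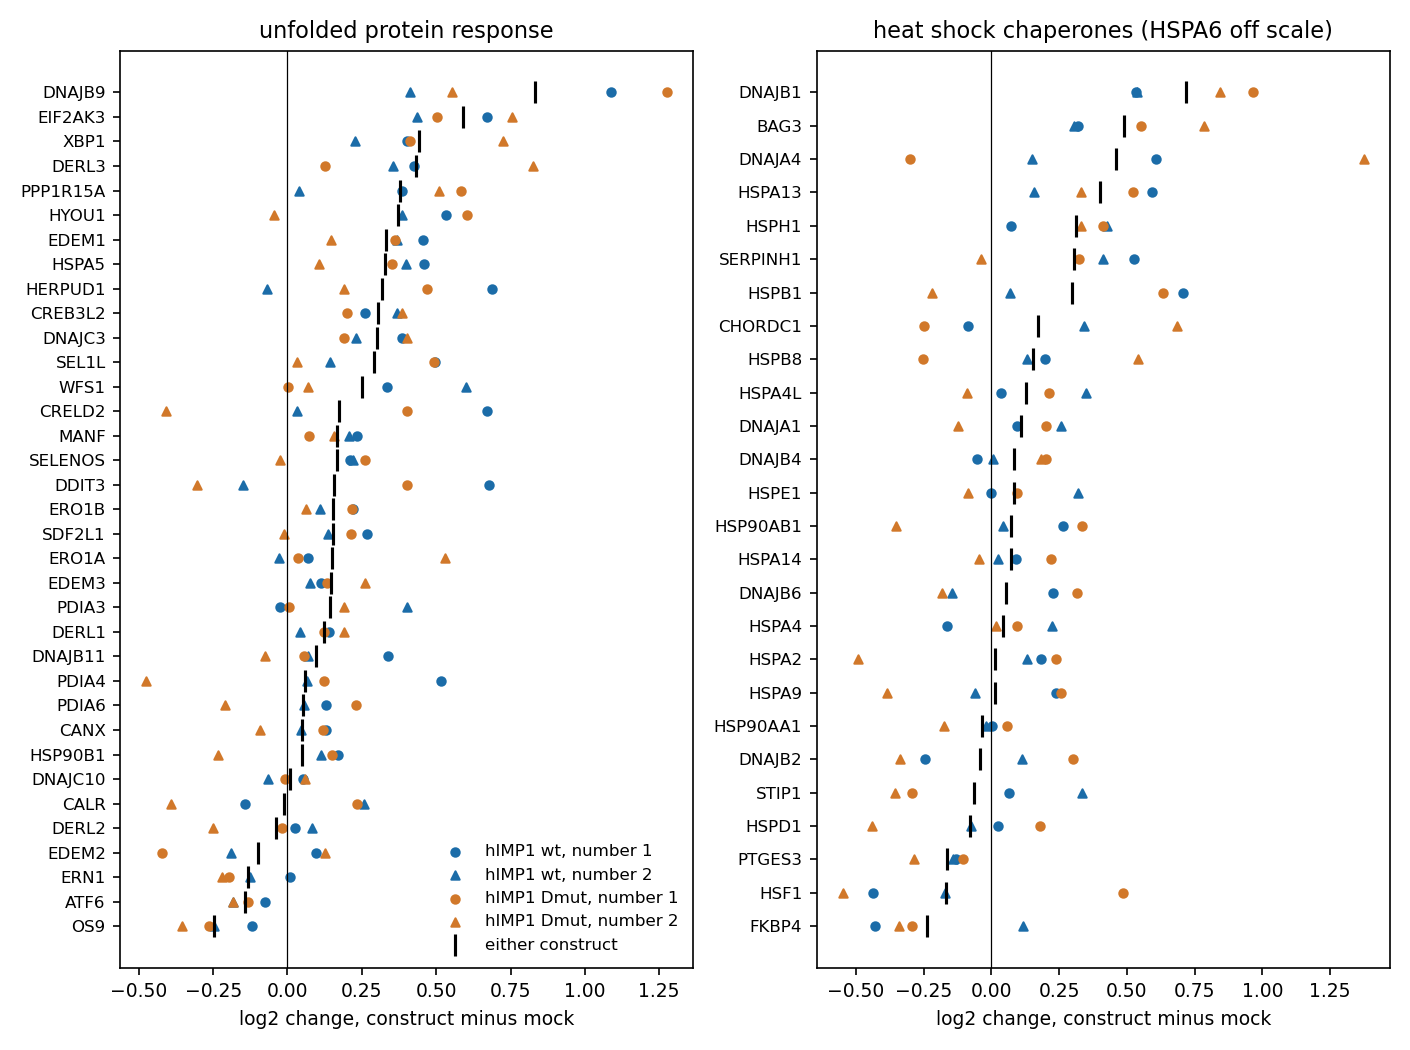
Log2 difference of each measured gene of the heat shock chaperone list (27 genes) and the unfolded protein response list (35 genes). Points show each construct array against the mock of the same number. A tick shows either construct minus mock in the blocked limma fit, and standard errors are not drawn. HSPA6, at 5.07, is off the scale, while the unfolded protein response genes spread around a median of 0.15 with DNAJB9 at the top.

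Further along the secretory pathway, in the Golgi and vesicle transport list, 30 of 36 genes were above 0 in the pooled difference, 9 lay above the mock of their number on all 4 construct arrays (25%, against 9.59% of all genes) and 3 below (8.33%, against 11.5%). 0 of 36 passed in limma, with 4 higher and 0 lower at an unadjusted p under 0.05, against 237 and 225 of all 12269 genes. The list's median was 0.11, and on the single arrays it was 0.10 and 0.12 with hIMP1 wt and 0.13 and 0.10 with hIMP1 Dmut. FURIN, the proprotein convertase of the Golgi, read 78.9 and 46.0 in the mocks and 83.4 to 134 with the constructs, a log2 difference of 0.76 ± 0.20. SEC24D, a cargo adaptor of the COPII coat, had a log2 difference of 0.69 ± 0.22. The brighter members differed less, with 0.31 ± 0.11 for COG2 of the Golgi tether complex, 0.28 ± 0.10 for ARCN1 of the COPI coat, and 0.25 ± 0.11 and 0.24 ± 0.12 for the Golgi structure genes GORASP2 and GOLGA5. In the list for ER translocation and glycosylation, 16 of 30 were above 0 and 2 lay above on all 4 arrays (6.67%), near the share over all genes. 0 of 30 passed there, with 1 higher and 0 lower at an unadjusted p under 0.05. In that list KDELR3, which returns ER proteins from the Golgi, read 160 and 179 in the mocks and 226 to 241 with the constructs, a log2 difference of 0.44 ± 0.14. The median of the ATF4 amino acid response list, the arm of ER stress that PERK feeds, was 0.01 (0.11 for number 1 and -0.17 for number 2), with 16 of 31 above 0. Of these 31 genes 0 passed, and 0 had an unadjusted p under 0.05.

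**Figure D3:**
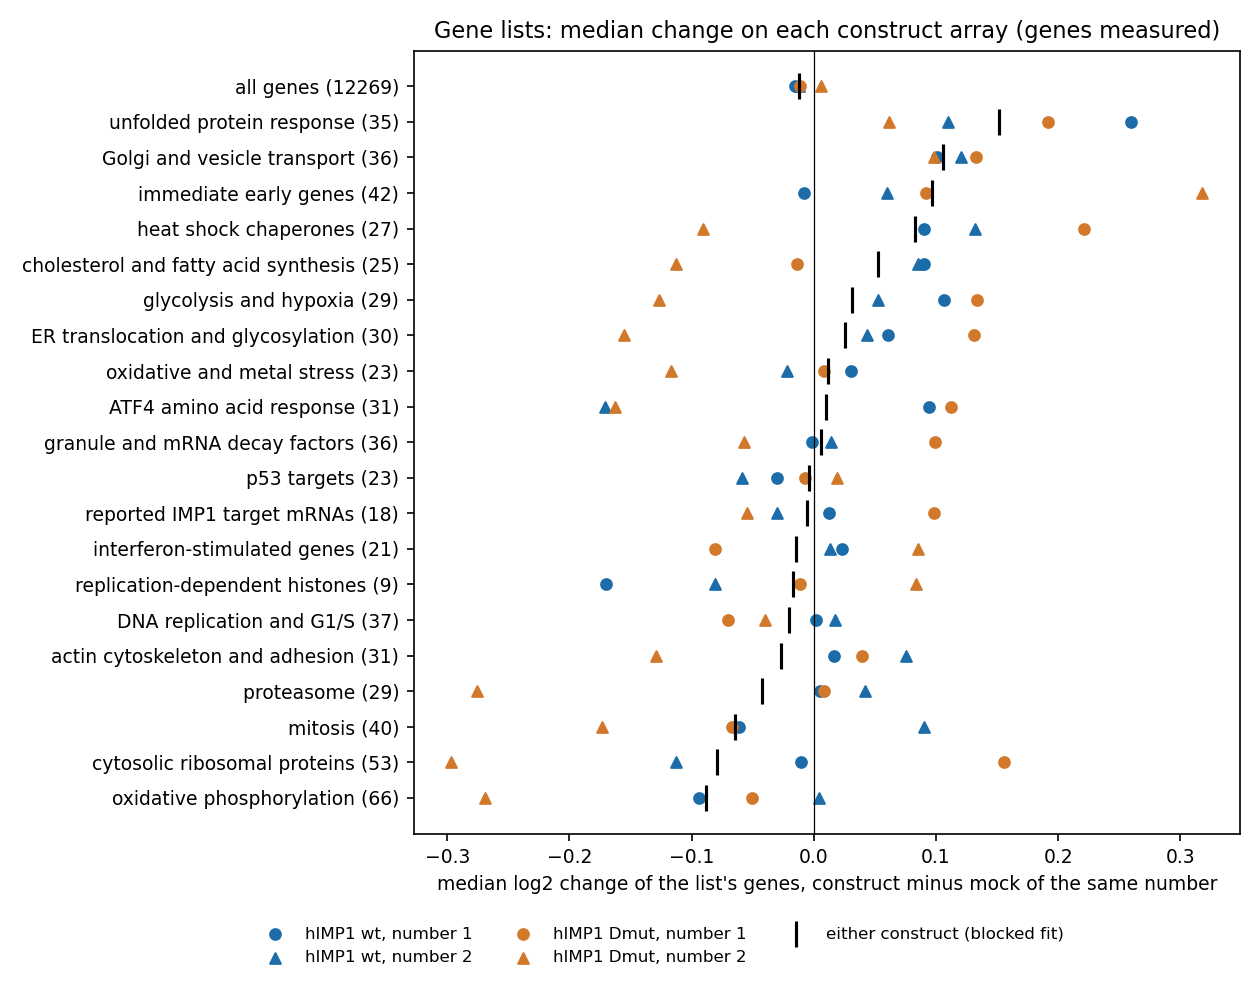
Median log2 difference of each gene list on each construct array against the mock of the same number (blue for hIMP1 wt, orange for hIMP1 Dmut, circles for number 1, triangles for number 2), with a black bar for the pooled blocked fit and the number of genes measured in parentheses. The unfolded protein response and Golgi lists lie above 0 on all 4 arrays, and the hIMP1 Dmut array of number 2 lies lowest for the proteasome, ribosomal protein, mitosis and oxidative phosphorylation lists.

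Immediate early genes, which respond within minutes to growth factors and stress, were mixed. Of 42 measured, 27 were above 0 in the pooled difference, 9 lay above on all 4 arrays (21.4%, against 9.59% of all genes) and 3 below (7.14%, against 11.5%). 0 of 42 passed in limma, with 7 higher and 1 lower at an unadjusted p under 0.05, against 237 and 225 of all 12269 genes. JUN, a subunit of the AP-1 transcription factor, read 1956 and 1230 in the mocks, 2264 and 1696 with hIMP1 wt, and 2503 and 1842 with hIMP1 Dmut. Each JUN construct array exceeded the mock of its number, with a log2 difference of 0.40 ± 0.11, and its 3 other probe sets lay at 0.33 to 0.74. FOSL2, another AP-1 subunit, had 0.75 ± 0.21, SPRY2, an inhibitor of receptor tyrosine kinase signalling, 0.43 ± 0.15, and DUSP1, a phosphatase of MAP kinases, 0.34 ± 0.10. Other probe sets lay at 0.53 and 0.88 for FOSL2, and at 0.10 ± 0.38 and 0.11 ± 0.32 for DUSP1. EGR1, a zinc finger transcription factor, had 0.73 ± 0.26, and its wt array of number 2 (160, against 139 in the mock) lay near the mock while the other 3 construct arrays read 381 to 419. NR4A1, an orphan nuclear receptor, went the other way at -0.91 ± 0.30, with 51.9 and 69.6 in the mocks and 22.9 to 33.4 with the constructs. The list's median was 0.10, but on the single arrays it was -0.01 and 0.06 with hIMP1 wt and 0.09 and 0.32 with hIMP1 Dmut, and without the Dmut array of number 2 it was 0.06.

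Outside these lists, the genes of smallest p whose construct arrays did not overlap the mocks were of several kinds. C11orf96, an open reading frame of little known function, read 244 and 120 in the mocks, 587 and 289 with hIMP1 wt, and 438 and 311 with hIMP1 Dmut. All 4 construct arrays lay above both mocks, with a log2 difference of 1.14 ± 0.15 (95% interval 0.82 to 1.47; limma adjusted p = 0.0769). It was the 1 probe set besides those of HSPA6 with an adjusted p under 0.1, and it passed at 0.0486 with a coefficient for each construct. FJX1, a secreted Golgi protein, had mean intensities of 140 ± 42.6 (SD, n = 2) in the mocks and 224 ± 42.4 (SD, n = 4) with the constructs, a log2 difference of 0.66 ± 0.15. CASP8, the initiator caspase of death receptors, had 86.0 ± 11.8 in the mocks and 149 ± 29.6 with the constructs, a log2 difference of 0.72 ± 0.17. A second CASP8 probe set lay at 0.28 ± 0.13. Of the 12 genes ranked on the higher side, these were the brighter ones among those outside the lists above.

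The other 5 were dim in the mocks, where the offset weighs most. Their mean log2 values of 5.39 to 5.78 passed the filter of 5.19 only through the construct arrays, so their place on the higher side is partly fixed by the filter. ANHX, an anomalous homeobox gene, read 20.6 and 12.4 in the mocks and 45.9 to 113 with the constructs, a log2 difference of 1.69 ± 0.35. INHBB, the beta B subunit of activin and inhibin, had 1.46 ± 0.33, SLC25A29, a mitochondrial carrier of basic amino acids, 1.42 ± 0.31, PRDM15, a zinc finger regulator, 1.39 ± 0.31, and TEX26-AS1, an antisense RNA, 1.56 ± 0.37. Other probe sets of the same genes did not all go along. The brighter SLC25A29 probe set lay at -0.57 ± 0.20, and the 2 other PRDM15 probe sets at -0.03 and 0.23. The limma adjusted p of these genes lay between 0.935 and 0.999.

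On the lower side 0 of 27307 probe sets passed in limma, and 418 had an unadjusted p under 0.05. WNK2, a kinase that regulates ion cotransporters and MAP kinase signalling, read 64.4 and 68.7 in the mocks, 20.5 and 21.1 with hIMP1 wt, and 17.7 and 19.3 with hIMP1 Dmut. The replicates lay close together and the groups far apart, with a log2 difference of -1.40 ± 0.31, but the 2 other WNK2 probe sets lay at -0.34 ± 0.28, also below both mocks on all 4 construct arrays, and at 0.44 ± 0.35. DDX39A, an RNA helicase of mRNA splicing and export, read 2812 and 3104 in the mocks, 1771 and 2506 with hIMP1 wt, and 1775 and 1710 with hIMP1 Dmut. Its log2 difference was -0.62 ± 0.14 (95% interval -0.93 to -0.32), and it was the brightest of the 12 genes ranked on this side. ARFGAP2, an Arf GTPase-activating protein of COPI vesicles, had 469 ± 29.4 in the mocks and 300 ± 45.1 with the constructs, a log2 difference of -0.64 ± 0.15. CD276, the immune checkpoint ligand B7-H3, had 525 ± 22.3 in the mocks and 371 ± 65.1 with the constructs, a log2 difference of -0.51 ± 0.13, with -0.99 ± 0.37 at a dimmer probe set.

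For several of the other genes ranked on the lower side the probe sets differed. PTMS, parathymosin, had a log2 difference of -0.90 ± 0.19 and the readthrough pseudogene DTX2P1-UPK3BP1-PMS2P11 -0.95 ± 0.18, with -0.21 at its other probe set. EPOR, the erythropoietin receptor, lay at -0.71 ± 0.15 with 3 other probe sets at -0.07, 0.01 and 0.31. HCFC1R1, which binds the cofactor HCFC1, lay at -1.91 ± 0.43 with the other at -0.24. Like the first WNK2 probe set, the one at -1.91 passed the filter only through the mock arrays. MYO1C, an unconventional myosin, and HNRNPLL, a splicing regulator, lay at -0.68 ± 0.17 and -0.85 ± 0.21, with their other probe sets between -0.20 and 0.23. PLEKHO2, a pleckstrin homology domain protein, lay at -1.45 ± 0.34, of which number 1 gave -2.13 and number 2 -0.77. HM13, the signal peptide peptidase of the ER membrane, lay at -1.14 ± 0.30, with its other probe sets at -1.25, 0.42 and -0.18. Of the -1.14, number 1 gave -2.02 and number 2 -0.26. Without mock number 2 the HM13 difference was -2.02 with a limma adjusted p of 0.0243, so 1 array moves it past the threshold. Leaving out mock number 1 leaves the comparison of number 2 alone, at -0.26. The limma adjusted p of the 12 genes lay between 0.902 and 0.999.

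**Figure D4:**
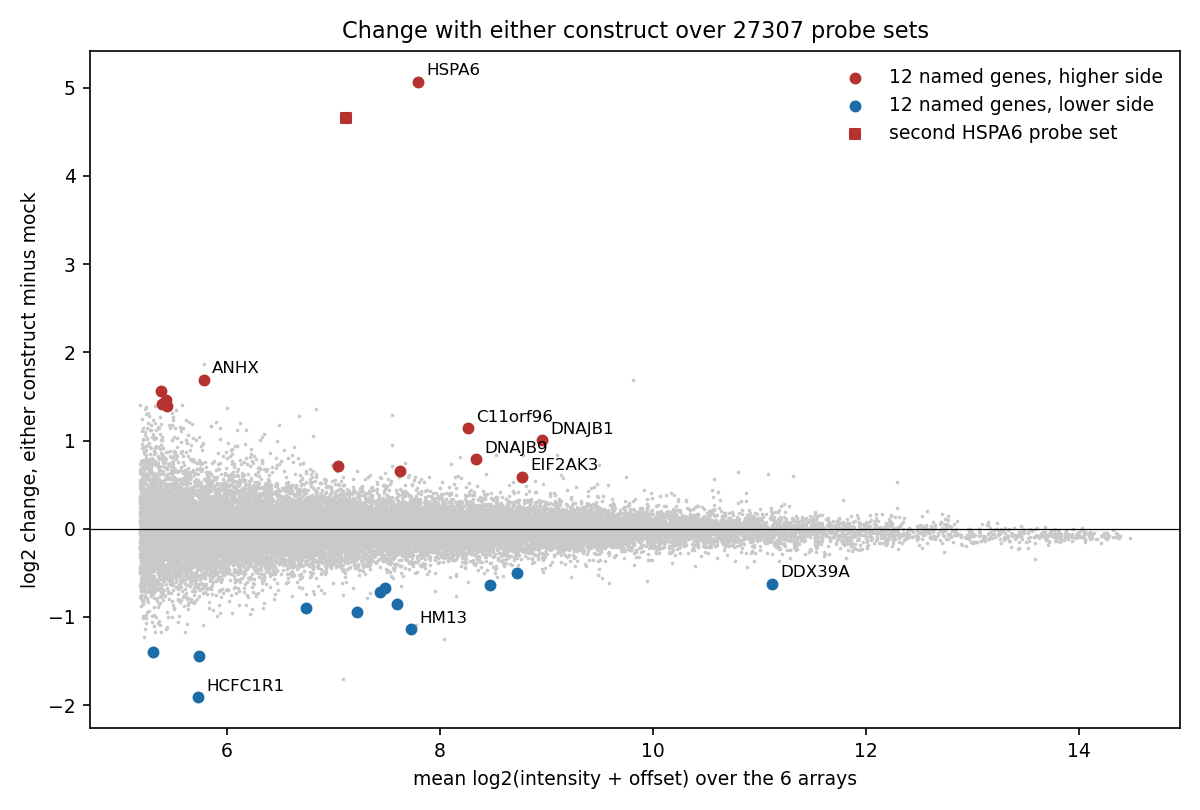
Log2 difference of each of the 27307 probe sets, either construct minus mock, against its mean log2(intensity + 9.05) over the 6 arrays. The genes ranked on either side are coloured, and some of them are labelled. The 2 HSPA6 probe sets lie alone above a change of 4. Of the other labelled genes, HCFC1R1 and ANHX lie furthest from 0 and are dim (mean log2 values of 5.73 and 5.78).

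At an unadjusted p under 0.05 there were 994 probe sets, 576 higher and 418 lower, fewer than the 1365 that this threshold gives by chance over 27307 tests. The median standard error was 0.18, so a log2 difference of 0.40 was needed for an unadjusted p of 0.05 at that error. Without overlap between the 4 construct arrays and the 2 mocks and with at least a 2-fold difference there were 56 probe sets on the higher side and 19 on the lower. Of the 56, 7 had a mean intensity of at least 100 with the constructs, and of the 19, 4 had a mean of at least 100 in the mocks.

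IGF2BP1, the transfected gene, was covered by 2 kept probe sets. The brighter one read 231 and 307 in the mocks, 226 and 326 with hIMP1 wt, and 266 and 288 with hIMP1 Dmut, a log2 difference of 0.04 ± 0.14 (95% interval -0.26 to 0.34). The dimmer one read 188 and 93.2 in the mocks, 253 and 137 with hIMP1 wt, and 248 and 150 with hIMP1 Dmut, and lay above the mock of its number on all 4 construct arrays. Its log2 difference was 0.48 ± 0.15 (95% interval 0.16 to 0.81; limma adjusted p = 0.999). These probe sets check the labels only if they lie in the part of the mRNA that the vector carries, which the sources used here do not give. Among 18 measured mRNAs reported as IMP1 targets 0 passed in limma, and their median was -0.01. At an unadjusted p under 0.05, 2 were higher and 1 lower, against 237 and 225 of all 12269 genes. PPP1R9B, the spine protein spinophilin, had 0.41 ± 0.17, and ABCB1, the drug efflux pump, 0.22 ± 0.12, with 0.26 at its other probe set. MKI67, the proliferation antigen Ki-67, had -0.29 ± 0.11, but its other probe sets lay at 0.05, -0.11 and -0.21. MAPT, the microtubule protein tau, had -0.19 ± 0.20, with its other probe sets at -0.01, 0.04 and -0.32. Of 36 RNA granule and mRNA decay factors 0 passed, with 1 higher (the decapping activator DCP1A, 0.32 ± 0.12) and 0 lower at an unadjusted p under 0.05.

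The medians of the oxidative phosphorylation and mitosis lists lay slightly below 0, while that of 29 glycolysis and hypoxia genes was 0.03, with 18 above 0. Of 66 oxidative phosphorylation genes 56 were below 0 in the pooled difference and 17 lay below on all 4 arrays (25.8%, against 11.5% of all genes). The median was -0.09, and it was -0.09 and 0.004 with hIMP1 wt and -0.05 and -0.27 with hIMP1 Dmut, and -0.03 in the pooled fit without the Dmut array of number 2. UQCRC1, a core subunit of complex III, read 1840 and 2460 in the mocks, 1618 and 2428 with hIMP1 wt, and 1608 and 1496 with hIMP1 Dmut, a log2 difference of -0.28 ± 0.16. COX4I1 of complex IV had -0.20 ± 0.11. Of 40 mitosis genes 29 were below 0 and 11 lay below on all 4 arrays (27.5%), with a median of -0.06. That median was -0.06 and 0.09 with hIMP1 wt and -0.07 and -0.17 with hIMP1 Dmut, and -0.01 in the pooled fit without the Dmut array of number 2. AURKB, the Aurora kinase of chromosome segregation, read 560 and 1048 in the mocks, 435 and 732 with hIMP1 wt, and 526 and 440 with hIMP1 Dmut, a log2 difference of -0.55 ± 0.20. PLK1, the polo kinase, had -0.51 ± 0.23 and CDCA8, a partner of Aurora B, -0.30 ± 0.11. In limma 0 genes of either list passed, with 0 higher and 1 lower (oxidative phosphorylation) and 0 higher and 3 lower (mitosis) at an unadjusted p under 0.05. Over all 12269 genes 237 were higher and 225 lower at that threshold. The median of 53 cytosolic ribosomal protein genes was -0.08, but 0.07 for number 1 and -0.20 for number 2, so that its sign turned between the numbers.

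A few single genes of other lists lay apart from their list. CDC6, which loads the replicative helicase, read 697 and 418 in the mocks, 968 and 519 with hIMP1 wt, and 1004 and 569 with hIMP1 Dmut. Each construct array exceeded the mock of its number, with a log2 difference of 0.43 ± 0.11. The other CDC6 probe set lay at 0.13 ± 0.11, and the median of the 37 replication genes was -0.02. The metallothionein MT1G, which binds zinc and copper, read 266 and 210 in the mocks and 142 to 170 with the constructs, a log2 difference of -0.56 ± 0.16. MT2A of the same family lay at -0.36 ± 0.17, of which number 1 gave -0.68 and number 2 -0.04, and the zinc exporter SLC30A1, which like the metallothioneins is driven by zinc, at -0.20 ± 0.10, while the median of the 23 genes of oxidative and metal stress was 0.01. The histone gene H2BC6 lay at -0.67 ± 0.22, and the p53 target TP53I3, a quinone oxidoreductase, at -0.46 ± 0.18. The median of the 23 p53 targets was -0.004. Of these 23, 37, 23 and 9 genes (p53, replication, metal stress and histones) 0 passed in limma, with 0, 1, 0 and 0 higher and 1, 0, 2 and 1 lower at an unadjusted p under 0.05.

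The constructs were set against each other to see where the shared response differed in size. 0 of 27307 probe sets passed in limma (0% called), the smallest adjusted p was 0.567, and 870 had an unadjusted p under 0.05. The count that passed after adjustment rose from 0 to 20 with median scaling. It also rose when some single arrays were left out, most without hIMP1 Dmut number 1, which leaves 1 array in that group. The count that passed thus rests on single arrays and on the scaling. HSPA6 was higher with hIMP1 Dmut than with hIMP1 wt in both numbers, with a log2 difference of 0.76 ± 0.27 (95% interval 0.18 to 1.34) at the brighter probe set and 0.94 ± 0.24 (0.43 to 1.46) at the dimmer one, neither of which passed (limma adjusted p = 1). Against mock, the brighter probe set lay at 5.45 with hIMP1 Dmut and 4.69 with hIMP1 wt. The dimmer DNAJB1 probe set lay at 1.16 with hIMP1 Dmut and 0.84 with hIMP1 wt, with an interval of the difference from -0.02 to 0.66. C11orf96 lay at 1.06 and 1.22 in the same order, with an interval from -0.54 to 0.23, and these intervals leave room for unequal as well as equal responses. The 2 constructs' values against mock share the same mock arrays.

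Across the 6 arrays the median intensity was 26.7 to 33.7, and the mean after trimming 2% at each end was about 150.02 on each array. The 3' to 5' ratio was 1.03 to 1.17 for GAPDH and 1.44 to 1.67 for ACTB. The correlation of log2 values was 0.970 to 0.980 between arrays of 1 number and 0.963 to 0.964 between arrays of 1 group. Markers of blood (3 of 9 kept), endothelium (1 of 7), fibroblasts (1 of 7) and mature kidney tubule and podocyte (2 of 9) were few and dim, with summed intensities of 120 to 210, 39.3 to 40.1, 87.2 to 139 and 62.7 to 68.8 on the mock arrays. On the construct arrays these sums were 111 to 230, 7.50 to 60.9, 94.0 to 166 and 39.3 to 109, so the groups overlapped. Neuronal markers (4 of 7 kept) summed to 3413 to 3990 with mock and 3338 to 3981 with the constructs, markers of embryonic kidney (6 of 9) to 808 to 815 and 748 to 932, and markers of epithelium (6 of 7) to 8400 to 9474 and 7974 to 9036. Of the 9 defining markers of tubule and podocyte, 7 were below the filter or not measured, so these markers do not settle the labelled kidney origin.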

How the data were processed

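Total RNA of 6 one-colour arrays was compared, 2 each for mock, hIMP1 wt and hIMP1 Dmut, grouped by the labels' descriptions and numbered by the titles. The deposited values are linear intensities, 1 per probe set. How the authors scaled them, and with which software, is not stated in the sources used here. Values were used as log2(intensity + 9.05), the offset being the pooled lower quartile, which understates changes of dim genes. The 62 control probe sets were left out, and 27307 of 54675 were kept by a mean log2 value of at least 5.19, the median. Symbols came from the platform annotation table (41091 probe sets with 1 symbol, 1801 with several, 11721 with none), of which 41037 had a gene identifier in RefSeq GRCh38.p14 with 0 symbols to update. Probe sets with several symbols name no gene here, so HSPA1A and HSPA1B have no value. A gene in a list is read from its brightest kept probe set.

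The fit was limma 3.58.1 in R 4.3.3 (lmFit, eBayes with an intensity trend) with 1 coefficient for either construct and the replicate number as a block, leaving 3 residual degrees of freedom plus 8.24 from the prior. A second fit with a coefficient per construct compared the constructs. Two-sided p-values were adjusted by Benjamini-Hochberg over the kept probe sets, and errors of log2 differences are SE. The differences between number 1 and number 2 correlated between groups at 0.464 (mock and wt), 0.200 (mock and Dmut) and 0.217 (wt and Dmut), so the numbers pair the arrays. The fit was tested on simulated data.

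Genes named by rank were, in each direction, the called ones and then those of smallest p without overlap between construct and mock arrays, up to 12, with 1 probe set per gene. Genes named from lists were among the 6 of largest statistic. The members, lists and rules were chosen with earlier results of these data known. Alternatives were other scalings, offsets, filters, priors and blocks, and leaving out each array.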

Additional observations from a re-analysis of the deposited data

Results flagged for a closer look

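In 8 of 69 named probe sets 1 of the 4 construct arrays stood apart from the other 3, by the gap to its nearest neighbour as a share of the range of log2 values, and chance gives about 1 in 20. This measure does not use the replicate number, which pairs the arrays, so a gap can follow the mocks: UQCRC1 read 1840 and 2460 in mock numbers 1 and 2, RPL8 10258 and 14592, and HNRNPLL 371 and 209. The share was 0.863 for INHBB (30.0 on the wt array of number 2, 57.5 to 63.4 on the others), 0.902 for DDX39A (2506 on the wt array of number 2, 1710 to 1775 on the others), 0.870 for HNRNPLL (98.6 on that array, 167 to 180 on the others), 0.833 for XBP1 (840 on that array, 1121 to 1188 on the others) and 0.901 for EGR1 (160 on that array, 381 to 419 on the others). It was 0.838 for UQCRC1 (2428 on the wt array of number 2, 1496 to 1618 on the others), 0.931 for RPL8 (12592 on that array, 9770 to 9943 on the others) and 0.910 for PPP1R9B, where the wt array of number 1 read 123 and the others 151 to 154.

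For 2 of 21 lists both arrays of hIMP1 wt had a median on 1 side of the mock and both of hIMP1 Dmut on the other. The median of the replication genes was -0.035 with hIMP1 Dmut and 0.01 with hIMP1 wt. The median of the cholesterol and fatty acid synthesis genes was -0.030 with hIMP1 Dmut and 0.09 with hIMP1 wt. Neither difference was tested.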

How the results depend on the processing

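The 2 HSPA6 probe sets passed under every alternative that kept them except the fit without an intensity trend, which called 0 probe sets higher. The count of higher probe sets was 1 with only the probe sets above the 75th percentile, where 1 HSPA6 probe set is left, and 4 with the replicate block and a coefficient per construct, which added DNAJB1 and C11orf96. Without the replicate block it was 2. Leaving out 1 array each gave 2 to 4 higher and 0 to 2 lower. C11orf96 passed without hIMP1 Dmut number 1 (1.25, limma adjusted p = 0.0399), and HM13 without mock number 2. The count that differed between the constructs was 20 with median scaling and 0 to 1299 over the arrays left out, the highest without hIMP1 Dmut number 1 and 33 without hIMP1 Dmut number 2, and the cause was not tested. The brighter IGF2BP1 probe set ranged from -0.013 without hIMP1 Dmut number 1 to 0.087 without hIMP1 Dmut number 2, and was -0.0024 without mock number 1. Of the alternative values for named genes, 1144 kept direction and side of the threshold, 2 reversed, 4 gained and 2 lost the call. The median of the unfolded protein response list ranged from 0.09 to 0.22, of the Golgi list from 0.06 to 0.12, of the oxidative phosphorylation list from -0.13 to -0.03, of the mitosis list from -0.12 to -0.01, and of the ribosomal protein list from -0.20 to 0.07. Dim genes are limited by the background, since no detection calls were used here.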

Other observations

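BHLHA15, a transcription factor of secretory cells that acts with XBP1 in their maturation, was chosen after its values were seen. It read 50.1 and 10.5 in the mocks, 122 and 46.6 with hIMP1 wt, and 137 and 46.8 with hIMP1 Dmut. Each construct array exceeded the mock of its own number by a similar log2 difference, 1.15 to 1.51, although the number 2 construct arrays lay below the number 1 mock. The pooled log2 difference was 1.37 ± 0.24 with a limma adjusted p of 0.607.

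Within the lists, promoter matches and differences were set side by side without a test. The 12 heat shock chaperone genes with the heat shock unit in a window had a median log2 difference of 0.16, and the 12 without it 0.06. In the same order, 10 and 9 lay above 0, and 2 and 3 lay above the mock of their number on all 4 construct arrays. The 8 unfolded protein response genes with the ER stress element had a median of 0.10, and the 24 without it 0.16, with DNAJB9 and EIF2AK3 among the latter.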
